A study of Mus musculus with 12 samples.

Results

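The comparison asked whether microRNA (miRNA) levels moved differently between 12 h and 24 h of tunicamycin in mouse embryonic fibroblasts with and without XBP1. It was made on 8 of the 12 arrays of the series, those of the 4 tunicamycin groups. The XBP1KO groups, deficient in XBP1, had 2 arrays at 24 h and 2 at 12 h, and the XBP1WT groups, wild type for XBP1, likewise had 2 at 24 h and 2 at 12 h. All cells were of the C57BL/6 background strain and all 8 cultures received 2 ug/mL tunicamycin. The 4 untreated arrays, 2 per genotype, were used only to scale the arrays and as levels beside the tunicamycin values. They lie on another slide with scans of their own. Treatment and slide therefore cannot be told apart wherever untreated levels are set beside tunicamycin levels. The labels call the replicates independent experiments, and they do not say how the XBP1 deletion was made, whether the cells were primary or a line, or how many embryos they came from. The array carries no probe for Xbp1 mRNA, so the genotype labels could not be checked on the targeted gene.

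In the unfolded protein response, XBP1 acts as a transcription factor. The endoplasmic reticulum sensor IRE1 splices its mRNA when unfolded proteins build up, as they do when tunicamycin blocks N-linked glycosylation. IRE1 also cleaves other RNAs, among them some miRNA precursors, and the parallel PERK branch acts on miRNA genes through ATF4 and CHOP. A mature miRNA binds messenger RNAs mainly through its seed, bases 2 to 8 from the 5′ end, so miRNAs with the same seed share much of their target set.

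Each value below is a log2 signal, the processed intensity of a miRNA summed over its probes and scaled between arrays, with a floor at 3.33 for signals too dim to order. The difference between genotypes is the XBP1WT change (24 h minus 12 h) minus the XBP1KO change, so a negative value means that the miRNA rose more, or fell less, in XBP1KO. It was taken within each replicate number and averaged over the 2 replicates. A miRNA was tested where the scanner software detected it on both arrays of at least 1 of the 4 groups, which held for 207 of 611 mouse miRNAs, and 112 of these were above the floor on all 8 arrays.

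The mature sequences of the miRNAs that the results turn on are given first, from RefSeq (GRCm38.p6), with the seed in capitals. A first set shows miRNAs described below whose difference was negative in both replicates, with miR-148a included because it has the seed of miR-152.
miR-152: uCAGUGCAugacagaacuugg
miR-148a: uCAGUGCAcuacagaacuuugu
miR-342-3p: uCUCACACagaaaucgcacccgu
miR-193b: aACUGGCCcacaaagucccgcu
miR-146b: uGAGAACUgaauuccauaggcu
miR-196b: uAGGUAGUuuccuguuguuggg
miR-210: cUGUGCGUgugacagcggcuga
The next set shows miRNAs whose difference was positive in both replicates.
miR-721: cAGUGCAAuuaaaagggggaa
miR-135a*: uAUAGGGAuuggagccguggcg
miR-680: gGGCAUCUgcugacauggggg
miR-671-5p: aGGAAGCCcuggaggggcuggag
miR-1224: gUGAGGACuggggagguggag
The last set shows 2 pairs that each share a seed, of which miR-10a, miR-10b and miR-99a set 1 array apart from the others of its genotype.
miR-10a: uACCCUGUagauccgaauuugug
miR-10b: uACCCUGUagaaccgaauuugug
miR-99a: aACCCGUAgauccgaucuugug
miR-100: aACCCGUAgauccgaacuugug

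The mature miR-152 lies at chr11:96850439-96850459 on the plus strand, miR-342-3p at chr12:108658680-108658702 on the plus strand, miR-146b at chr19:46342790-46342811 on the plus strand, and miR-210 at chr7:141221407-141221428 on the minus strand. Of 42 array names looked up by their current arm name, 37 matched the table. The run GGGG, searched on the mature strand itself, stood in 5 of the 11 matched miRNAs of the positive sets named below (45.45%), in 0 of the 12 matched miRNAs of the negative sets, and in 188 of all 1679 mature mouse miRNAs of the table (11.2%). The median share of G was 45.5% in the positive sets and 25.65% in the negative ones, against 26.9% over the whole table. These shares describe sets ranked on the difference itself, and no test was made on them. The sets were drawn from the tested miRNAs, whose own shares are not given, so the whole table is an unlike background.

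Before the results, the state of the arrays has to be given. Summed over mouse miRNAs, the unscaled signal came to 35462 and 41866 on the XBP1KO arrays at 24 h, 40327 and 78153 on the XBP1KO arrays at 12 h, 14076 and 32661 on the XBP1WT arrays at 24 h, and 32310 and 67423 on the XBP1WT arrays at 12 h (first and second replicate). On the log2 scale the total changed between 12 h and 24 h by -0.19 and -0.90 in XBP1KO and by -1.20 and -1.05 in XBP1WT, a difference of -1.01 in the first replicate and -0.15 in the second, which scaling removes. The software detected 146 and 159 mouse miRNAs on the XBP1KO arrays at 24 h, 200 and 194 at 12 h, and 120 and 158 on the XBP1WT arrays at 24 h, 174 and 194 at 12 h. Replicates agreed less at 24 h than at 12 h. Above the floor, the SD of the log2 difference between the 2 replicates was 1.06 in XBP1KO at 24 h and 0.27 at 12 h, and 0.58 in XBP1WT at 24 h and 0.38 at 12 h.

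The second XBP1KO array at 24 h stood apart from the other XBP1KO arrays for single miRNAs. Of the 207 tested miRNAs, 2 lay there more than 1.5 below and 4 more than 1.5 above every other XBP1KO array of the series. miR-10b, which is encoded in the Hoxd cluster, was at the floor there (3.33), while the other 5 XBP1KO arrays of the series lay between 6.96 and 8.25 and the 6 XBP1WT arrays between 4.15 and 5.19. miR-10a, encoded in the Hoxb cluster, was at 3.38 there, against 4.63 to 6.06 on the other XBP1KO arrays and 6.04 to 7.06 on the XBP1WT arrays. In the other direction, miR-99a was at 5.99 there, against 3.33 to 3.47 on the other XBP1KO arrays and 4.88 to 5.70 on the XBP1WT arrays. miR-194 (5.90) and miR-296-5p (5.48) were measured there and at the floor on all other XBP1KO arrays. miR-130b was at the floor there, against 4.74 to 5.94 on the other XBP1KO arrays and 5.67 to 6.67 on the XBP1WT arrays. These 6 miRNAs were picked after their values were seen. They are not the same as those counted by the margin of 1.5, since miR-10a and miR-130b fell short of it.

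Over 8 miRNAs that separate the other 5 XBP1KO arrays from the 6 XBP1WT arrays by more than 0.5, the second XBP1KO array at 24 h was nearer the XBP1KO arrays for 5, namely miR-155, miR-196b, miR-199b*, miR-31 and miR-31*, and nearer the XBP1WT arrays for 3, namely miR-10b, miR-296-5p and miR-99a. This count cannot decide the identity of the array, which was not tested. The array is called by its label here, and several values below are given with and without it. By the same margin of 1.5, the first XBP1KO array at 24 h lay below every other XBP1KO array for 5 tested miRNAs. A departure upwards was seen on the second XBP1WT array at 12 h, where 14 tested miRNAs were more than 1.5 above every other XBP1WT array, and on the second XBP1WT array at 24 h, where 3 were. That count of 14 was the largest of any array. Without the second XBP1WT array at 12 h, the median difference between genotypes over all tested miRNAs was 0.06, against -0.04 with all 8 arrays.

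**Figure D1:**
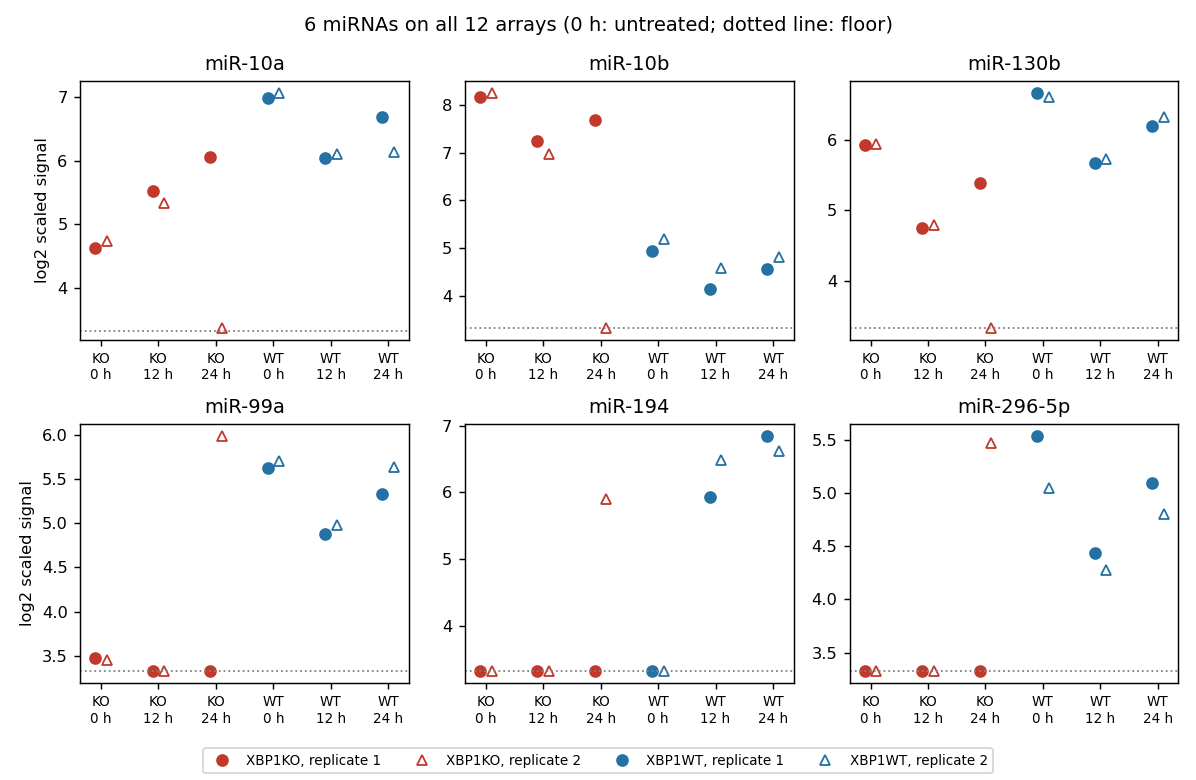
Log2 scaled signal (vertical axis) of 6 miRNAs on all 12 arrays, by genotype and hours of tunicamycin (0 h is untreated), with circles for the first replicate and open triangles for the second, and the floor as a dotted line. The second XBP1KO array at 24 h lies at or near the floor for miR-10a, miR-10b and miR-130b, and at 5.48 to 5.99 for miR-99a, miR-194 and miR-296-5p, where the other XBP1KO arrays lie at or near the floor.

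The cells carried the miRNAs of fibroblasts. Of 14 fibroblast and mesenchymal markers, 10 were detected on all 8 arrays, and their summed scaled signal was 21662 to 23067 in XBP1KO at 24 h, 13649 to 16727 in XBP1KO at 12 h, 15870 to 21520 in XBP1WT at 24 h and 14194 to 15003 in XBP1WT at 12 h. Of 8 blood cell markers only miR-155 was detected, and the liver marker miR-122 was detected on none of the 8 arrays. Of 8 neural markers 3 were detected, 2 of them, miR-129-3p and miR-129-5p, on all 8 arrays. The summed neural signal was 92.6 to 110.9 in XBP1KO at 24 h and 57.7 to 64.6 in XBP1KO at 12 h. In XBP1WT it was 84.2 to 135.9 at 24 h and 86.4 to 94.3 at 12 h. Of 10 epithelial markers only miR-194 was detected, and the summed signal of that list was 4.57 to 70.0 in XBP1KO at 24 h, 8.34 to 10.72 in XBP1KO at 12 h, 102.5 to 123.0 in XBP1WT at 24 h and 66.7 to 117.3 in XBP1WT at 12 h. The high XBP1KO value at 24 h was that of the second array, and its part in the results was not tested. The summed endothelial markers (miR-126-3p and miR-126-5p) ran from 2.26 to 26.0 over the XBP1KO arrays at 24 h, from 0 to 2.38 in XBP1KO at 12 h, from 0.472 to 5.97 in XBP1WT at 24 h and from 0 to 1.45 in XBP1WT at 12 h. In bulk RNA, fewer cells of a type and less RNA per cell cannot be told apart.

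No miRNA had a 12 to 24 h change that differed between the genotypes past the threshold. In limma's moderated test with the replicate as a block, 0 of 207 miRNAs (0%) passed an adjusted p of 0.05, the smallest adjusted p was 0.993, and 3 miRNAs (1.45%) had an unadjusted p under 0.05 where 10.35 would be expected with no difference anywhere. Those 3, miR-152, miR-342-3p and miR-146b, were all negative, with XBP1KO higher at 24 h than at 12 h. With the second XBP1KO array at 24 h left out, 0 passed and 8 had an unadjusted p under 0.05, and with the second XBP1WT array at 24 h left out, 0 passed and 1 did. With the first XBP1KO array at 24 h left out, 0 passed, 43 had an unadjusted p under 0.05 and the smallest adjusted p was 0.156. The median standard error above the floor was 0.49, ranging from 0.18 to 1.61, and at the median a miRNA needed a difference of about 1.24 to reach an unadjusted p of 0.05 with 2 arrays a group.

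Within each genotype, the change itself did pass the threshold for many miRNAs. In XBP1KO, 51 of 207 (24.6%) differed between 24 h and 12 h, of which 48 (23.2%) were lower at 24 h and 3 (1.45%) higher. In XBP1WT, 37 (17.9%) differed, all lower at 24 h, and all 37 were among the 48 of XBP1KO. The split in direction in XBP1KO also changed with which array was left out, and in both genotypes it depends on scaling. With quantile normalization XBP1KO had 79 higher and 57 lower and XBP1WT 56 higher and 47 lower, and with the percentile taken over all mouse miRNAs XBP1KO had 88 higher and 53 lower and XBP1WT 6 higher and 35 lower. That percentile moved the median XBP1KO change over all tested miRNAs to 0.92, against -0.01 in the scaling used here, and the median XBP1WT change to 0.68, against 0.07.

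**Figure D2:**
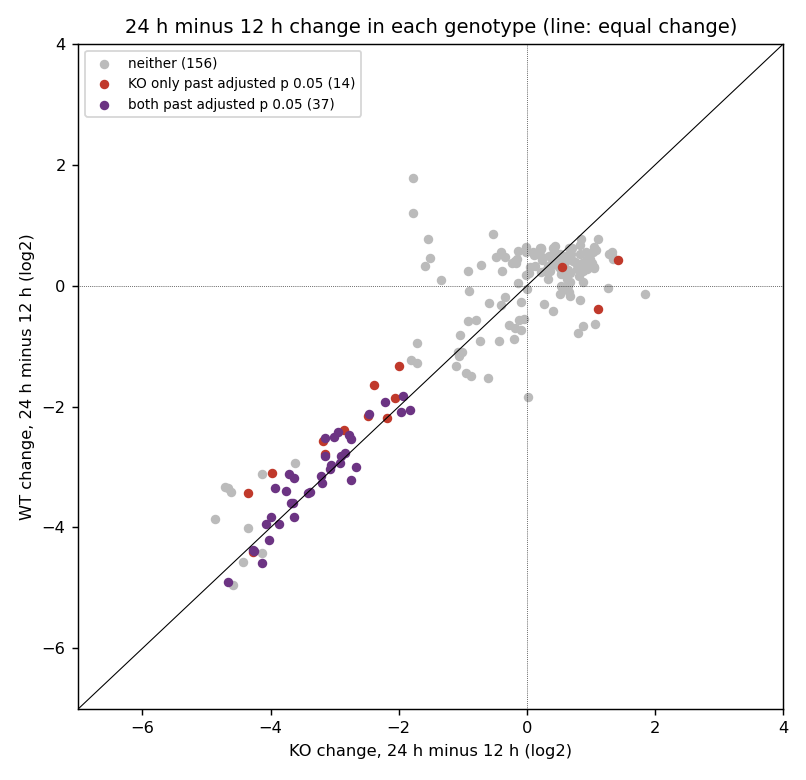
XBP1KO change (horizontal axis) against XBP1WT change (vertical axis), both 24 h minus 12 h in log2, for 207 tested miRNAs, with the line of equal change. Colours mark the 37 that passed the threshold in each genotype and the 14 that did so in XBP1KO alone, and none passed the threshold for the difference between the axes.

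The 2 replicates gave different values. For the 112 miRNAs never at the floor, the median difference was 0.15 in the first replicate, with 27 miRNAs negative, and -0.63 in the second, with 89 negative. Only 38 of the 112 (33.9%) had the same sign in both, 21 negative and 17 positive. Across miRNAs, which are not independent of each other, the differences of the 2 replicates had a Pearson r of -0.04 and a Spearman rho of 0.08. Their size was also unequal, with a median absolute difference of 0.19 in the first replicate and 0.84 in the second. With the second XBP1KO array at 24 h left out, the median difference of these 112 miRNAs was -0.03, against -0.12 with all 8 arrays. It was also -0.03 with the second XBP1WT array at 24 h left out instead.

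**Figure D3:**
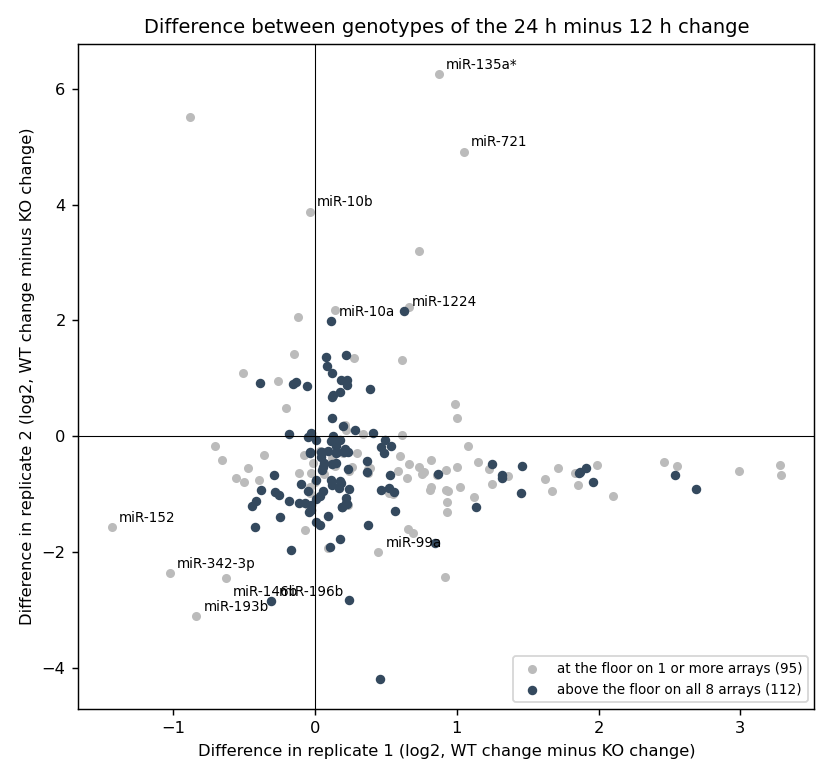
Difference between genotypes of the 24 h minus 12 h change (log2, XBP1WT change minus XBP1KO change) in the first replicate (horizontal axis) and the second (vertical axis), with the 112 never at the floor in dark and 95 others in grey. Most dark points lie right of 0 and below 0, and miR-152, miR-342-3p, miR-146b, miR-193b and miR-196b lie below 0 on both axes.

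miR-152, known for targeting the DNA methyltransferase DNMT1, had the smallest p-value. Its log2 signal was 4.25 and 4.63 in XBP1KO at 24 h, at the floor (3.33) on both XBP1KO arrays at 12 h, 3.33 and 3.41 in XBP1WT at 24 h, and 3.84 and 3.68 in XBP1WT at 12 h. The XBP1KO arrays at 24 h were above all 6 others, and the software detected miR-152 on them alone among the 8. miR-152 thus entered the test only through the group where it was high, so that this separation partly restates the detection filter. Its level at 24 h in XBP1KO was at least 2.10-fold that at 12 h (limma adjusted p = 0.0348), while XBP1WT had only a bound at either time. That p-value is from the fit with all 8 arrays, and calls of higher miRNAs in XBP1KO depended on which array was left out. The difference was -1.43 and -1.57 in the 2 replicates, -1.50 on average (SE 0.37, unadjusted p = 0.00918, limma adjusted p = 0.993), and -1.30 without the second XBP1KO array at 24 h. It was -0.15 with the floor doubled, -0.28 with no scaling between arrays and -0.33 with normexp background correction. All these levels were below those of untreated cells, which were 5.63 and 5.8 in XBP1KO and 5.99 and 6.11 in XBP1WT, on the other slide.

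miR-148a, which has the same seed, had a log2 signal of 5.18 and 6.25 in XBP1KO at 24 h and 4.52 and 4.23 at 12 h, against 6.93 and 7.11 in XBP1WT at 24 h and 6.51 and 6.5 at 12 h. Both genotypes were higher at 24 h, and XBP1KO stayed below XBP1WT on every array. The difference was -0.24 and -1.40, and -0.27 without the second XBP1KO array at 24 h.

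miR-342-3p, encoded in an intron of Evl, had 5.35 and 6.48 in XBP1KO at 24 h and 4.84 and 4.86 at 12 h, against 3.33 and 4.21 in XBP1WT at 24 h and 3.84 and 4.96 at 12 h. XBP1KO was higher at 24 h in both replicates and XBP1WT lower in both, with 1 of the 2 XBP1WT arrays detecting it at each time. The difference was -1.70 (SE 0.52, -1.02 and -2.37 in the replicates, unadjusted p = 0.0217, limma adjusted p = 0.993), and -1.47 without the second XBP1KO array at 24 h. miR-146b, of a family known for dampening NF-kB signalling, had 4.94 and 5.05 in XBP1KO at 24 h and 4.51 and 3.73 at 12 h, against 4.50 and 3.33 in XBP1WT at 24 h and 4.69 and 4.46 at 12 h. Its difference was -1.54 (SE 0.55, -0.63 and -2.45, unadjusted p = 0.0353), and -1.12 without that array. In the untreated cells miR-146b was at 8.28 and 8.34 in XBP1KO and at 7.26 and 7.25 in XBP1WT, far above any tunicamycin array. The other member of its family, miR-146a, was not detected on any XBP1WT tunicamycin array.

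miR-193b had the largest negative mean difference of these sets, -1.98, and the replicates gave it very unequally, -0.84 and -3.12. It was at 4.64 and 6.82 in XBP1KO at 24 h and at 3.80 and 3.96 at 12 h, and no XBP1WT tunicamycin array detected it, so that the XBP1WT change has no measured value. Without the second XBP1KO array at 24 h the difference was -0.95. miR-196b, encoded in the Hoxa cluster, was at 6.78 and 7.42 in XBP1KO at 24 h and 6.46 and 6.13 at 12 h, against 4.18 and 3.43 in XBP1WT at 24 h and 4.17 and 4.99 at 12 h. The genotypes did not overlap at either time, and in XBP1WT miR-196b was not well above background at 24 h and was detected on 1 of 2 arrays at 12 h. Its difference was -0.31 and -2.85, the second resting on both a higher XBP1KO and a lower XBP1WT level at 24 h.

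miR-210, the miRNA best known for its induction by hypoxia, was tight within XBP1KO, with 4.65 and 4.70 at 24 h and 4.10 and 3.97 at 12 h, and at the floor on all 4 XBP1WT arrays. The XBP1KO change was 0.64 (SE 0.24, limma adjusted p = 0.107). Because no XBP1WT array detected it, its difference of -0.64 (-0.55 and -0.73) holds an XBP1WT change that was not measured. Untreated cells had 6.83 and 6.87 in XBP1KO and 4.85 and 4.81 in XBP1WT.

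The negative miRNAs above the floor on all 8 arrays were ranked by the smaller of their 2 replicate values in size. The first 8 with the same sign in both were miR-350, miR-100, miR-129-5p, miR-143, miR-196b, miR-1897-5p, miR-652 and miR-103. This is not the order of the mean difference, and miR-322, with a mean of -1.07 (-0.17 and -1.97), falls outside. miR-350 was at 5.66 and 5.73 in XBP1KO at 24 h and 5.31 and 5.26 at 12 h, against 4.72 and 4.87 in XBP1WT at 24 h and 4.81 and 5.6 at 12 h. XBP1KO replicates lay close together, and the spread came from XBP1WT at 12 h. Its difference was -0.82 (-0.44 and -1.20). miR-100 was at 4.98 and 6.02 in XBP1KO at 24 h and 3.87 and 4.27 at 12 h, against 5.67 and 5.62 in XBP1WT at 24 h and 4.99 and 5.44 at 12 h. With all 8 arrays it rose by 1.43 in XBP1KO (SE 0.34, limma adjusted p = 0.0365). It was 1 of only 3 miRNAs called higher there, with miR-152 and miR-21, and these calls depended on which array was left out. The rise of miR-100 was smaller in the first replicate, which does not use the second XBP1KO array at 24 h. The difference of miR-100 was -1.0 (-0.42 and -1.58). The 5 others had mean differences between -0.77 and -0.48, with miR-143, a miRNA of mesenchymal and smooth muscle cells, at -0.66, and miR-103, a miRNA tied to insulin sensitivity, at -0.63. In XBP1WT miR-143 was not well above background at 24 h and was detected on 1 of 2 arrays at 12 h. The last one inside this set, miR-103, had a smaller replicate value of -0.25.

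**Figure D4:**
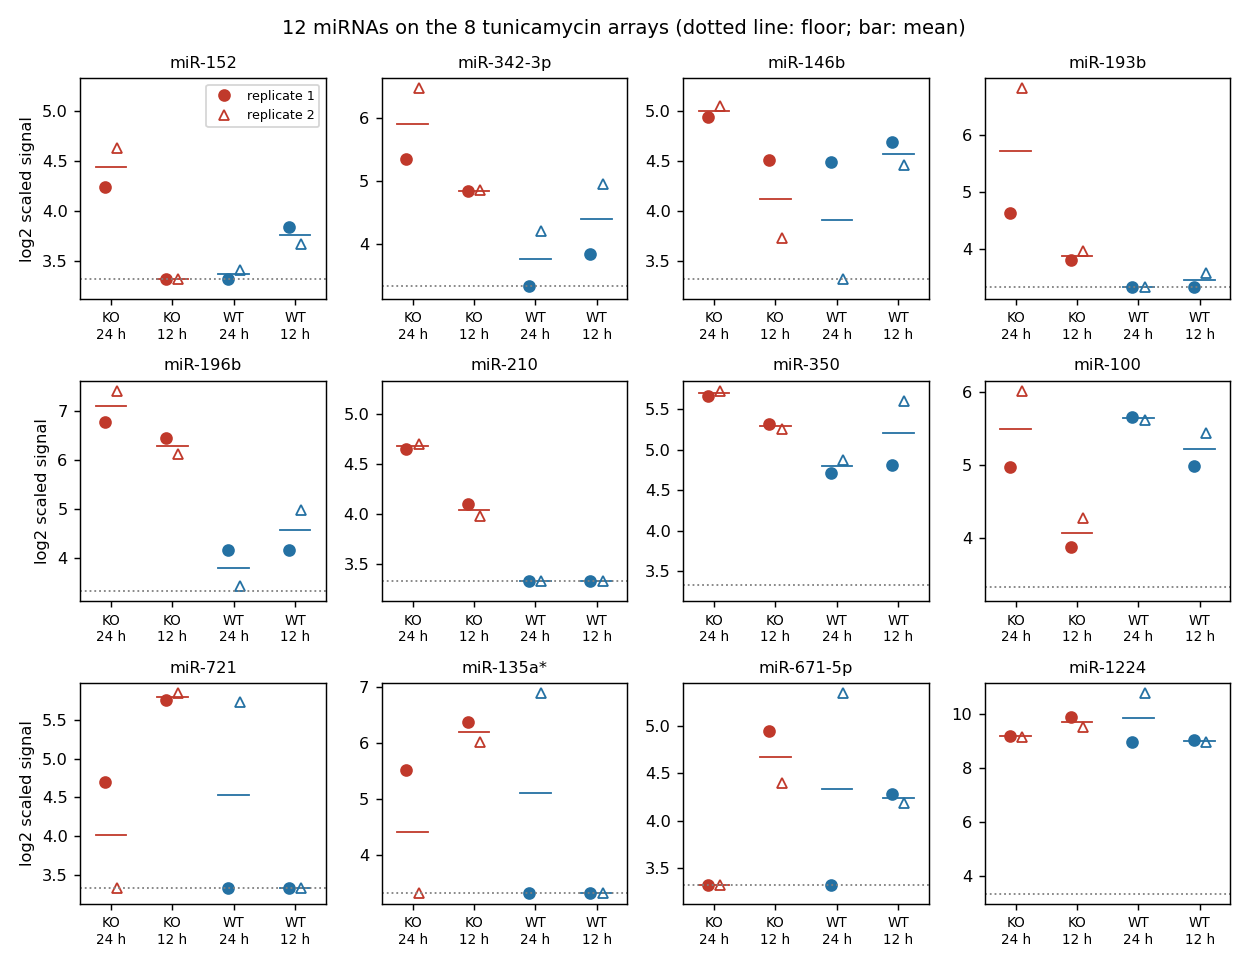
Log2 scaled signal (vertical axis) of 12 miRNAs on the 8 tunicamycin arrays, by genotype and time, with circles for the first replicate, open triangles for the second, bars for the mean of the 2 and a dotted line for the floor. miR-152 is above the floor on both XBP1KO arrays at 24 h and at it on both at 12 h, and miR-721, miR-135a* and miR-671-5p owe the high XBP1WT mean at 24 h to the second array.

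The largest positive mean differences, those of miR-135a* and miR-721, came with 1 high XBP1WT array. miR-721 was at 4.70 and 3.33 in XBP1KO at 24 h and 5.75 and 5.84 at 12 h, against 3.33 and 5.73 in XBP1WT at 24 h and the floor on both arrays at 12 h. miR-135a* was at 5.51 and 3.33 in XBP1KO at 24 h and 6.38 and 6.01 at 12 h, against 3.33 and 6.89 in XBP1WT at 24 h and the floor on both at 12 h. Both were above the floor in XBP1WT on the second array at 24 h alone, and not well above background in XBP1WT at 12 h. Both passed the detection filter only through XBP1KO at 12 h. Their differences were 2.98 (1.05 and 4.92) and 3.56 (0.87 and 6.25), with unadjusted p-values of 0.0589 and 0.112 in limma, and 1.57 and 1.35 without the second XBP1WT array at 24 h.

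miR-680 (1.96), miR-671-5p (1.44), miR-139-3p (0.97) and miR-705 (0.77) were the other 4 of the 6 chosen by their smaller replicate value among positive miRNAs at the floor on some array. Of these, miR-680, miR-671-5p and miR-705 passed the detection filter only through XBP1KO at 12 h. miR-671-5p was at the floor on both XBP1KO arrays at 24 h and at 4.94 and 4.39 at 12 h, against 3.33 and 5.35 in XBP1WT at 24 h and 4.28 and 4.19 at 12 h. In XBP1KO its level at 12 h was at least 2.53-fold that at 24 h, with the change not past the threshold (limma adjusted p = 0.165). Without the second XBP1WT array at 24 h the differences of miR-680 and miR-671-5p were 0.49 and 0.33, and that of miR-139-3p was -0.17. Without the second XBP1KO array at 24 h those of miR-680 and miR-705 were 0.39 and 0.03. miR-1224 was at 9.18 and 9.14 in XBP1KO at 24 h and 9.88 and 9.51 at 12 h, against 8.95 and 10.76 in XBP1WT at 24 h and 9.02 and 8.97 at 12 h. Here 7 of the 8 arrays spanned less than 1 log2 unit and the second XBP1WT array at 24 h stood above them, and the difference of 1.40 was 0.41 without it.

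The 8 positive miRNAs above the floor with the largest smaller replicate value, of 17 positive in both replicates, were miR-1224, miR-17*, miR-140, miR-34c, miR-689, miR-34a, miR-34b-5p and miR-193, and the 7 besides miR-1224 had mean differences of 0.19 to 0.82. miR-140, a cartilage-enriched miRNA, was at 9.10 and 7.47 in XBP1KO at 24 h and 8.91 and 8.03 at 12 h, against 10.03 and 9.41 in XBP1WT at 24 h and 9.61 and 9.0 at 12 h. Its difference was 0.60 with all 8 arrays and 0.13 without the second XBP1KO array at 24 h. The 3 miRNAs of the p53-induced miR-34 family among them, miR-34a, miR-34c and miR-34b-5p, had differences of 0.58, 0.55 and 0.47, and of 0.06, -0.02 and 0.04 without that array. The last inside this set was miR-193, with a smaller replicate value of 0.18, and the first outside was miR-92a with 0.13.

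Of the miRNAs whose precursors IRE1 has been reported to cleave, miR-17 was not among those tested and none of the 3 that were had a difference past the threshold. miR-34a was at 8.05 and 6.94 in XBP1KO at 24 h and 7.6 and 7.42 at 12 h, against 7.62 and 7.55 in XBP1WT at 24 h and 6.99 and 7.04 at 12 h. miR-96 was at 7.71 and 7.27 in XBP1KO at 24 h and 7.44 and 7.08 at 12 h, against 7.61 and 7.18 in XBP1WT at 24 h and 7.06 and 6.90 at 12 h, and its difference was 0.19 (0.28 and 0.10). miR-125b-5p was at 10.88 and 11.01 in XBP1KO at 24 h and 10.37 and 10.16 at 12 h, against 11.16 and 10.69 in XBP1WT at 24 h and 10.75 and 10.67 at 12 h, a difference of -0.46 (-0.10 and -0.83). All 3 were higher at 24 h than at 12 h in XBP1WT on both replicates. So was the median of the 112 miRNAs never at the floor, with XBP1WT changes of 0.47 and 0.20. In XBP1KO, miR-96 and miR-125b-5p were higher at 24 h in both replicates, and miR-34a only in the first. The median difference of the list was 0.19, against -0.12 over those 112 and -0.04 over all 207 tested miRNAs.

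The 9 tested miRNAs linked to PERK, ATF6, CHOP or XBP1 had 0 members past the threshold, all 9 positive in the first replicate (median 0.23) and all 9 negative in the second (median -0.84). Over all 207 tested miRNAs the medians were 0.20 and -0.60, and those of the list stood close to both. Of the 207, 154 were positive in the first replicate and 164 negative in the second. miR-346, reported in human cells to be induced by XBP1, was at 3.33 and 6.07 in XBP1KO at 24 h and 8.87 and 8.68 at 12 h, against 3.33 and 6.23 in XBP1WT at 24 h and 8.26 and 9.19 at 12 h. It fell by 4.07 in XBP1KO and by 3.95 in XBP1WT (limma adjusted p = 0.0278 and 0.0368), and the difference was 0.13 (SE 1.20). miR-211, a target gene product of the PERK branch, was at 3.33 and 4.41 in XBP1KO at 24 h and 7.11 and 6.64 at 12 h, against 4.31 and 4.60 in XBP1WT at 24 h and 6.24 and 7.68 at 12 h. No array detected miR-211 at 24 h, so its level at 12 h was at least 8.06-fold that at 24 h in XBP1KO and at least 5.31-fold in XBP1WT (limma adjusted p = 0.0178 and 0.0359).

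miR-214 and miR-199a-5p, which are transcribed together from the opposite strand of Dnm3 and of which miR-214 is known to target XBP1 itself, had the largest negative means of that list. Their differences were -0.80 (0.17 and -1.78) and -0.75 (0.04 and -1.53), and -0.20 and -0.16 without the second XBP1KO array at 24 h. The 3 miRNAs of the Mcm7 intron, miR-106b, miR-25 and miR-93, which PERK signalling represses, had differences of -0.36, -0.17 and -0.11.

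The medians of several seed families turned sign between the replicates, as did that of all tested miRNAs (0.20 and -0.60). Of all 207, 154 were positive in the first replicate and 164 negative in the second. All 9 let-7 family members, tumour suppressor miRNAs of differentiated cells, were positive in the first replicate (median 0.20) and negative in the second (median -0.77), and the median without the second XBP1KO array at 24 h was 0.03. let-7i, the one with the smallest p of the family, was at 9.68 and 10.42 in XBP1KO at 24 h and 9.21 and 9.02 at 12 h, against 9.77 and 9.32 in XBP1WT at 24 h and 9.11 and 9.16 at 12 h. The 5 tested miR-15/16 members had medians of 0.03 and -1.04, led by miR-322 with -0.17 and -1.97, and the 5 miR-30 members medians of 0.09 and -0.76. miR-23b and miR-27b, cotranscribed miRNAs, were at 9.29 and 7.43 on the second XBP1KO array at 24 h, against 7.56 and 6.03 on the first, and their differences of -0.91 and -0.64 were 0.10 and 0.09 without the second.

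The oncogenic cluster of miR-17 to miR-92a and its paralogs split. Of 11 tested members, 8 were positive in the second replicate, from 0.02 (miR-18a*) to 1.36 (miR-20b), and 3 were negative, these being the miR-106b, miR-25 and miR-93 already given. miR-20a was at 8.86 and 7.70 in XBP1KO at 24 h and 8.27 and 8.31 at 12 h, against 8.96 and 9.10 in XBP1WT at 24 h and 8.29 and 8.49 at 12 h. The second XBP1KO array at 24 h was thus the lowest of the 8, and the difference of 0.65 was 0.01 without it. The list median was 0.08 in the first replicate, 0.82 in the second and 0.00 without that array.

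The cluster in the Sfmbt2 intron, a large repeat array of rodents that encodes the miR-466 and miR-467 families, held many falls with time but no difference past the threshold. Of 29 tested members, 16 fell in XBP1KO (median change -3.19) and 13 in XBP1WT (median -3.00), against 48 and 37 of all 207. The first replicate had a median difference of 0.84, with 24 members positive, and the second -0.65, with all 29 negative. Over all 207 the medians were 0.20 and -0.60, with 154 positive in the first replicate and 164 negative in the second. miR-466d-3p was at 3.33 and 4.14 in XBP1KO at 24 h and 7.92 and 7.80 at 12 h, against 3.33 and 4.15 in XBP1WT at 24 h and 7.96 and 8.70 at 12 h. Its level at 12 h was at least 17.5-fold that at 24 h in XBP1KO and at least 16.1-fold in XBP1WT (limma adjusted p = 0.00769 and 0.00535), with near equal values in both genotypes. miR-466g showed how far replicates could part at 24 h, with 3.33 and 9.14 in XBP1KO at 24 h and 11.11 and 10.68 at 12 h, against 6.72 and 9.15 in XBP1WT at 24 h and 11.22 and 11.35 at 12 h. Its difference was 3.29 in the first replicate and -0.67 in the second.

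miR-206, a skeletal muscle miRNA, and miR-294, a miRNA of pluripotent cells, also fell in both genotypes (limma adjusted p = 0.0242 in XBP1KO and 0.0368 in XBP1WT for miR-206, 0.0213 and 0.0408 for miR-294). miR-206 was at the floor on all 24 h arrays and at 6.28 and 5.87 in XBP1KO and 5.04 and 6.70 in XBP1WT at 12 h. It was the only one of 6 muscle markers detected, miR-294 was the only one of 14 pluripotent markers, and both were at the floor in untreated cells. Their part in the falls of the Sfmbt2 cluster was not tested.

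**Figure D5:**
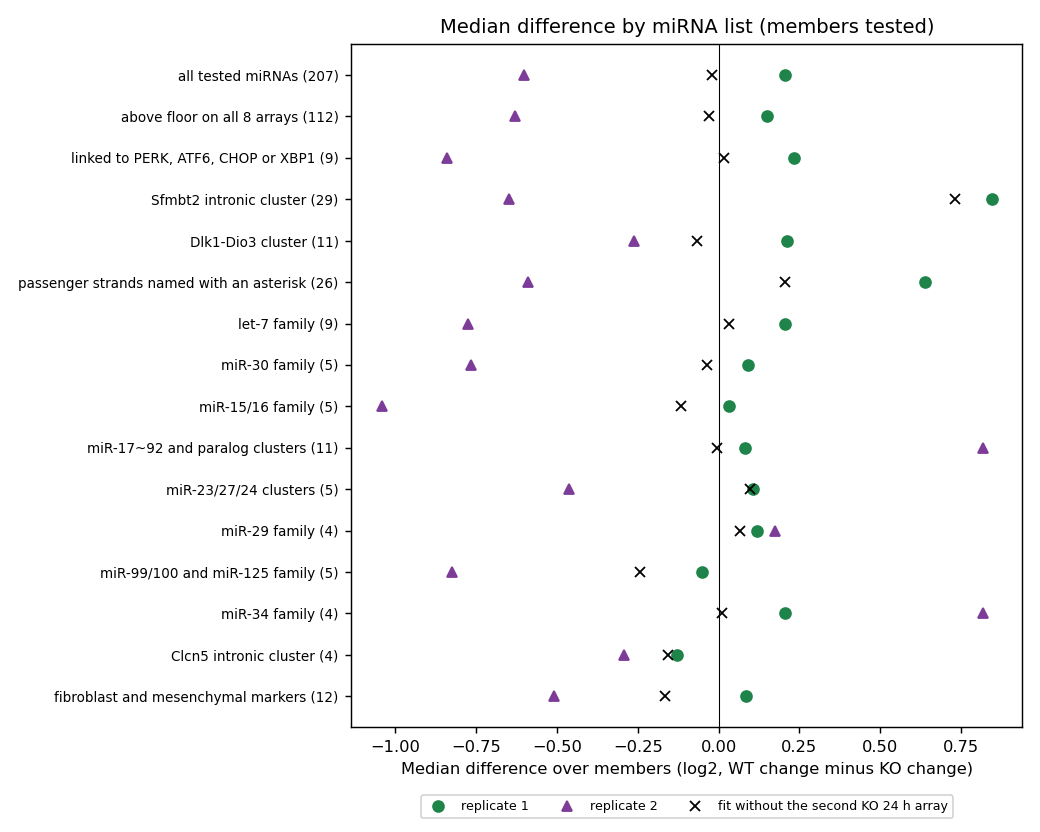
Median difference between genotypes (log2, XBP1WT change minus XBP1KO change; horizontal axis) over the tested members of each list with 4 or more (number in brackets), in the first replicate (circles), the second (triangles) and the fit without the second XBP1KO array at 24 h (crosses). Crosses lie between -0.24 and 0.21 for every list but the Sfmbt2 cluster (0.73), and over all tested miRNAs the 3 values are 0.20, -0.60 and -0.02.

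Calls appeared only when the signal of a miRNA was tied to the detection call or corrected in another way. With the software's total gene signal, which sits at 1 low constant where a miRNA is not detected, 5 of 207 miRNAs passed. These were miR-152 (-3.05, SE 0.23, limma adjusted p = 0.0120), miR-434-3p of the imprinted Dlk1-Dio3 cluster (-3.44, SE 0.25, adjusted p = 0.0120), miR-674* (-2.68), miR-374 (-2.32) and miR-872* (2.68). Each was a pattern of presence: miR-152, miR-374 and miR-674* were detected only on both XBP1KO arrays at 24 h, miR-434-3p only on both XBP1WT arrays at 12 h, and miR-872* on both XBP1KO arrays and 1 XBP1WT array at 12 h. Each of the 5 thus passed the detection filter through 1 group alone, so these calls, which are tied to detection, partly restate that filter. With ungated signals the same 5 had differences of -1.50, -0.64, -0.57, -0.54 and 0.20 for miR-152, miR-434-3p, miR-674*, miR-374 and miR-872*, none past the threshold. Over the other settings the adjusted p of miR-152 ran from 0.0120 to 1. miR-374 was at 3.98 and 3.84 in XBP1KO at 24 h and between 3.33 and 3.43 on the 6 other arrays. miR-434-3p was at 3.65 and 3.54 in XBP1WT at 24 h and 4.15 and 4.49 at 12 h, and at 3.33 to 3.5 on the 4 XBP1KO arrays.

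With normexp background correction, 1 miRNA passed, miR-21, one of the fibroblast markers, with a difference of -0.36 (SE 0.06, limma adjusted p = 5.86e-07), against -0.24 (SE 0.18, adjusted p = 0.993) with the processed signal. miR-21 was at 14.06 and 13.88 in XBP1KO at 24 h and 13.58 and 13.28 at 12 h, against 13.92 and 13.35 in XBP1WT at 24 h and 13.38 and 13.28 at 12 h. It was higher at 24 h in both genotypes and both replicates, and the difference with the processed signal was 0.06 in the first replicate and -0.53 in the second. The moderated SE draws on miRNAs of similar intensity, so the normexp p-value does not measure the replicate spread of miR-21 alone. Among miRNAs never at the floor, the replicates were farthest apart for miR-690, at 5.26 and 8.06 in XBP1KO at 24 h and 6.23 and 7.06 at 12 h, against 5.53 and 5.37 in XBP1WT at 24 h and 6.04 and 8.55 at 12 h, whose difference was 0.46 in the first replicate and -4.19 in the second.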

How the data were processed

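The scanner files hold spot intensity values that the authors deposited unnormalized, from Agilent Feature Extraction (version 10.7.1.1), per the submitters' processing notes and file headers. The series table holds the authors' deposited log2 values, which matched its total gene signal, on the log2 scale, to within 1.15e-06. Control and outlier spots were left out, spots averaged per probe and probes summed per miRNA. Each array was scaled to a common 75th percentile over 95 mouse miRNAs detected on all 12 arrays, with a floor at the 5th percentile of detected signals (10.0). No spot was saturated. "At least" folds set the brighter group's mean against, per array, the highest of the lowest detected signal, the miRNA's own and the floor.

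limma 3.58.1 (R 4.3.3; plots in matplotlib 3.10.9) was fitted to the 8 tunicamycin arrays with 4 group means, the replicate number as a block and an intensity trend, with 3 residual and 2.18 prior degrees of freedom, with Benjamini-Hochberg adjustment over 207 miRNAs. Per the file headers, all 8 tunicamycin arrays lie on 1 slide, where the replicate number is the scan. The 4 untreated arrays lie on another slide. The genotypes lie in different rows of the slide, so row and genotype cannot be told apart. p-values measure the spread between these arrays, moderated towards that of miRNAs of similar intensity. At the floor the spread is 0, which makes standard errors near it too small. The normexp alternative (offset 50) used the median spot signal, since the files hold no mean signal.

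Named miRNAs are, among those with the same sign in both replicates, the 8 and 8 above the floor and the 6 and 6 at it on some array with the largest smaller replicate value, list members with the smallest p, and a fixed set of miRNAs linked to the unfolded protein response. The members and the 30 lists were chosen with earlier results of these data known. miR-10a, miR-10b, miR-130b, miR-296-5p, miR-466g, miR-690, miR-374, miR-674* and miR-872* were singled out after their values were seen. The fit was also run on simulated arrays with equal, independent noise on every array and no floor or replicate effect. These data differ in each of those respects, so that run does not give the error rate here.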

Additional observations from a re-analysis of the deposited data

Results flagged for a closer look

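Outside the mouse miRNAs, the array carries 39 viral miRNA probes, of which 3 were detected on any of the 8 tunicamycin arrays. The probe set for mghv-miR-M1-2, a miRNA of murine gammaherpesvirus, had an unscaled signal of 33.0 and 64.0 in XBP1KO at 24 h and 387 and 283 in XBP1KO at 12 h, against 40.2 and 68.0 in XBP1WT at 24 h and 312 and 334 in XBP1WT at 12 h. Untreated arrays had 159 and 41.5 in XBP1KO and 135 and 38.0 in XBP1WT. The lowest 12 h signal, 283.354, was above the highest untreated one, 159.159, which came from the other slide and was likewise unscaled. The fall from 12 h to 24 h was present in both genotypes and in both replicates. Whether this signal is related to the falls of the mouse miRNAs was not tested.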

How the results depend on the processing

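The count of 0 miRNAs for the difference between genotypes held in 21 of 24 other settings, the exceptions being 5 with the software's total gene signal, 5 with the deposited series values and 1 with normexp. These settings are not independent checks. The percentile over miRNAs detected on the 8 arrays repeated the main fit, and the deposited series values are the total gene signal. In 8 settings 1 array was left out, which leaves 1 array in its group. Deviations of same-numbered arrays correlated at 0.0041 to 0.56 over the 6 pairs of groups. Without the replicate block the count was 0, with 3 unadjusted and a smallest adjusted p of 0.854, and leaving out 1 array in turn gave 0 each time, with 0 to 43 unadjusted and a lowest adjusted p of 0.156. The counts within genotypes were less stable. They were 108 in XBP1KO and 57 in XBP1WT with all 12 arrays and no replicate block, 94 and 58 with all 12 arrays and a replicate block by scan, 32 and 21 with normexp, 136 and 103 with quantile normalization, 141 in XBP1KO with the percentile over all mouse miRNAs, 9 and 0 over the miRNAs detected on all 8 arrays, and 0 and 0 with no detection filter. Leaving out 1 array gave 0 to 68 in XBP1KO and 0 to 34 in XBP1WT, with 0 in XBP1KO without its first 12 h array, 33 without its second 24 h array, 0 in XBP1WT without its first or without its second 24 h array and 12 without its second 12 h array. The replicate block moved no count of calls by over 1.5 times. The causes were not tested.

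miR-152, miR-342-3p, miR-146b, miR-193b, miR-196b and miR-210 were chosen for having the same sign in both replicates. That choice makes their sign likelier to hold when an array is left out, so its holding is not an independent mark of stability. No such count is given for all tested miRNAs. Of 68 miRNAs followed, 43 kept the sign of their difference whichever array was left out, those just named among them. The sign turned for the others, with ranges of -0.055 to 0.43 (miR-193), -0.11 to 1.66 (miR-705), -0.20 to 1.21 (miR-211), -0.69 to 1.11 (miR-206), -0.54 to 0.95 (miR-872*), -0.15 to 0.12 (miR-155), -1.07 to 1.32 (miR-346), -0.073 to 1.14 (miR-294), -1.24 to 3.86 (miR-466g), -0.28 to 2.22 (miR-139-3p), -0.16 to 0.12 (miR-221), -1.93 to 0.080 (miR-181d), -0.086 to 4.72 (miR-877), -1.07 to 0.11 (miR-1897-5p), -0.021 to 1.12 (miR-34c), -0.75 to 0.017 (miR-106b), -0.41 to 0.082 (miR-25), -0.18 to 2.28 (miR-10a), -0.33 to 4.17 (miR-10b), -0.10 to 2.04 (miR-130b), -1.99 to 0.47 (miR-194), -1.63 to 0.67 (miR-296-5p), -2.04 to 0.48 (miR-99a), -1.92 to 0.10 (miR-23b) and -1.38 to 0.094 (miR-27b).

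The sign also turned with the software's total gene signal, and equally with the deposited series values, for miR-17* (-1.79), miR-689 (-2.24), miR-652 (1.65), miR-680 (-0.85), miR-193b (0.20), miR-211 (-0.15), miR-96 (-0.0045), miR-93 (0.14), miR-10b (-0.031), miR-296-5p (0.86), miR-196a (2.15), miR-362-3p (0.022), miR-206 (-2.02), miR-294 (-0.51) and miR-148a (0.39). Under normexp it turned for miR-17* (-0.090), miR-34b-5p (-0.026), miR-193 (-0.030), miR-680 (-0.021), miR-671-5p (-0.10), miR-139-3p (-0.11), miR-705 (-0.12), miR-130b (-0.038) and miR-872* (-0.095). Quantile normalization turned miR-221 (0.062), miR-194 (0.14), miR-296-5p (0.45) and miR-99a (0.078), the percentile over all mouse miRNAs turned miR-193 (-0.15), miR-96 (-0.15) and miR-296-5p (0.096), no scaling turned miR-193 (-0.089), miR-96 (-0.087) and miR-374 (0.16), and a doubled floor turned miR-467a (0.25) and miR-155 (0.056). Dim signal limits these values, since 95 of the 207 miRNAs were at the floor on at least 1 of the 8 arrays.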
